A study of Triticum aestivum with 12 samples.

Results

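The chromosomal surroundings of 8 wheat genes were examined for methylated DNA in leaves. The neighbourhoods were all loci whose midpoint lay within 250 kb of a given position at or next to each gene, and they held 3308 of the 11509120 loci counted in the series. A locus here is a stretch of genome that was covered by reads in at least 1 library, and each had 1 read count per library. The positions were those of 4 genes that the study listed in every set of up- or down-methylated genes and of 4 genes that came up repeatedly in its lists of the strongest changes. The neighbourhoods were thus selected on the measured counts at the gene loci, in all 6 comparisons, and those counts are given below as a description without a test. The loci around them did not enter that choice, and the tests below are on those.

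The plants were winter wheat seedlings of the variety 'Mv Béres', grown hydroponically under LED modules. There were 4 groups of 3 libraries each. WP plants stood under white (W) light and received 0.5 mM putrescine (PUT), a polyamine, in the nutrient solution for 7 days. BP plants received the same PUT supply under blue (B) light, in which some red light remained. BC and WC plants were the untreated controls under B and W light. All groups were of the same genotype and age, and the libraries were made from whole leaves, so that a change in the number of cells carrying a methylated site and a change in every cell cannot be told apart.

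Methylated DNA was pulled down with an antibody against 5-methylcytosine and sequenced (MeDIP-seq), so that a count reflects how many methylated fragments came from a place and is not a percentage of methylated cytosines. In plants, cytosines are methylated in the CG, CHG and CHH contexts. In large cereal genomes the mark lies mostly on the transposons between genes, where it keeps them silent, while the bodies of many active genes carry CG methylation only. Genes thus stand as small islands in a methylated surrounding, and a locus at a gene can change without its surroundings.

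Libraries held 15812048 to 21355140 counts in all, of which 4360 to 5566 counts fell into the 8 neighbourhoods. WC replicate 1 stood apart, with counts at 1563154 loci of the whole series against 2459521 to 4482038 in the other libraries. Calls and counts of calls that changed when it was left out are given both ways below. Most loci were thinly covered, since 1109 of the 3308 neighbourhood loci (33.5%) had a count in 1 library only, close to the 32.1% of all loci. Another 23 loci (0.695%) had a count in all 12 libraries, against 0.889% of all loci. A locus was kept for tests where some group had a count above 10 in 2 or more of its libraries, which held for 143 neighbourhood loci (4.32%) and for 539307 loci in all (4.69%). Of the kept neighbourhood loci, 134 were flanking loci, meaning that they neither overlapped the named gene nor marked its position.

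Coordinates are those of the wheat reference assembly IWGSC CS RefSeq v2.1. At each gene, the kept locus nearest to the given position is called the selected locus. It overlapped the gene itself at LEO1, RAB15 and PPR and lay 735 to 1789 bp away from it at the other 5 genes. No sequence of these loci was used here.

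LEO1 (LOC123122878, 5D:471913760-471935463) encodes a homologue of a subunit of the Paf1 complex, which travels with RNA polymerase II and links transcription to histone modification. Its selected locus, at 5D:471925097-471926292 inside the gene, had counts of 6, 19 and 21 in WP, 3, 7 and 2 in BP, 0, 0 and 3 in BC and 0 in each WC library. WP and BP libraries all lay above the WC libraries, and WP was at least 16.9-fold higher than WC when the empty group was given a floor of 3 counts over its 3 libraries. This bound and those below hold only for the scaling of counts between libraries that is given with the processing. BC overlapped WC. The other 18 loci in the gene, of which none was kept, had summed counts of 34 in WP, 87 in BP, 87 in BC and 63 in WC. By library these were 0, 4 and 30 in WP, 25, 30 and 32 in BP, 21, 49 and 17 in BC and 29, 18 and 16 in WC. WP thus overlapped each other group there.

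The PPR gene (LOC123145097, 6D:361175131-361186728) encodes a pentatricopeptide repeat protein of the kind that binds and processes organellar RNA. Its Arabidopsis namesake is needed for the splicing of a mitochondrial transcript. The selected locus (6D:361186707-361187392) overlapped only the last bases of the gene by coordinate and lay mostly beyond it. The annotation used gives no strand, so whether this is the start or the end of the gene is not known here. Counts at the locus were 0, 10 and 36 in WP, 0, 17 and 17 in BP, 0 in each BC library and 0, 7 and 5 in WC. Replicate 1 was empty in every group, and no pair of groups was free of overlap. The other 11 loci of the gene, of which 1 was kept, summed to 82 counts in WP, 39 in BP, 73 in BC and 47 in WC. By library these were 14, 47 and 21 in WP, 14, 13 and 12 in BP, 18, 26 and 29 in BC and 0, 30 and 17 in WC.

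VHA-E (LOC123094251, 1B:542284678-542286348) encodes subunit E of the vacuolar proton pump, part of the stalk that holds its membrane and cytosolic sectors together. The selected locus lay 1355 bp from the gene (1B:542282094-542283323). It had no count in any WP library, 1, 0 and 0 in BP, 3, 1 and 1 in BC and 9, 12 and 11 in WC. All WC libraries stood above all others, and WP was at least 9.69-fold lower than WC. The 2 loci inside the gene differed from this, since they held 4, 9 and 4 counts in BC and none in the other groups.

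CHIL2 (LOC123103161, 5A:324599623-324600846) encodes a chalcone isomerase-like protein, a family whose members assist flavonoid synthesis without catalysing the isomerase step themselves. The selected locus (5A:324596207-324597834) lay 1789 bp from CHIL2 and inside a neighbouring protein-coding gene, LOC123103160. Counts were 0 in each WP library, 2, 0 and 0 in BP, 0, 0 and 6 in BC and 27, 11 and 8 in WC. The WC libraries were again above all others, and WP was at least 13.5-fold lower than WC. Within CHIL2 itself the 2 loci together had 0 counts in WP and in WC, 0, 0 and 8 in BP and 0, 3 and 6 in BC.

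LOC123165569 (7D:85910240-85912360) is an uncharacterised protein-coding gene. At its selected locus, 1777 bp away (7D:85914137-85914597), the counts were 0 in each WP library, 0, 0 and 1 in BP, 0, 4 and 0 in BC and 20, 7 and 12 in WC. WC libraries were all higher than the others, with WP at least 11.6-fold lower than WC. The 3 loci inside the gene together held 0, 2 and 0 counts in WP, 11, 4 and 2 in BP, 5, 0 and 3 in BC and 0 in WC.

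RAB15 (LOC123107951, 5A:611941974-611942904) encodes a dehydrin, a hydrophilic protein that accumulates on drying and after abscisic acid. It was covered by 1 locus only (5A:611941971-611944154), with 7, 3 and 24 counts in WP, 28, 26 and 10 in BP, 20, 10 and 18 in BC and 0 in each WC library. Every treated or B light library was above the WC libraries. Under the scaling used, which raised BC counts relative to WC, the lower bounds were 12.3-fold for WP, 25.2-fold for BP and 22.8-fold for BC, each against WC.

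GLP8-5 (LOC123108510, 5A:701951698-701952779) encodes a germin-like protein, a member of a family of cell wall glycoproteins with a cupin fold. The selected locus lay 1735 bp from the gene (5A:701954514-701955135) and had 0 counts in each WP and BP library, 6, 0 and 0 in BC and 17, 12 and 9 in WC. The WC libraries exceeded all others, with WP at least 11.3-fold and BP at least 10.03-fold lower than WC. The single locus inside the gene had 0, 3 and 0 counts in WP, 0, 9 and 0 in BP, 0, 0 and 4 in BC and none in WC.

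BTB-MATH (LOC123162097, 7B:639053132-639054520) encodes a BTB/POZ and MATH domain protein, a class of adaptor that brings substrates to cullin-based ubiquitin ligases in Arabidopsis. Its selected locus, 735 bp from the gene (7B:639049399-639052397), had 0, 0 and 6 counts in WP, 0, 8 and 1 in BP, 12, 12 and 36 in BC and 0 in each WC library. BC was above all other groups in each of its libraries. Under the scaling used, which raised BC counts relative to WC, the BC mean was at least 28.5-fold higher than WC. With the same scaling, BP was 0.127 times and WP 0.0751 times the BC mean. The 4 loci inside the gene summed to 0, 0 and 5 counts in WP, 7, 0 and 0 in BP, 13, 6 and 8 in BC and 0, 3 and 3 in WC.

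**Figure D1:**
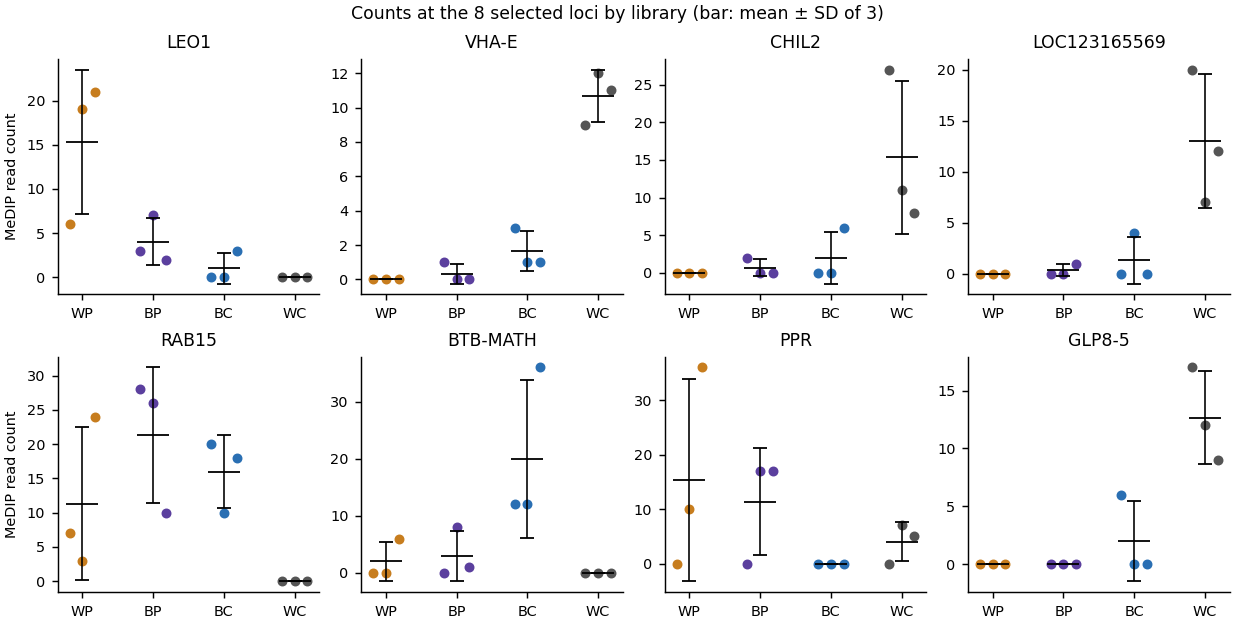
MeDIP read counts (y axis) at the selected locus of each of the 8 genes, by group (x axis). Points are the 3 libraries of a group, and bars are the mean ± SD of 3. LEO1, RAB15 and BTB-MATH have no count in WC, while VHA-E, CHIL2, LOC123165569 and GLP8-5 are highest in WC.

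The groups were free of overlap with WC at 6 of the 8 selected loci in BC, in BP and in WP. These were the same 6 loci in BP and WP, while BC had BTB-MATH in place of LEO1. Over all kept loci, the libraries did not overlap with WC for 13.2% in BC, 12.6% in BP and 10.4% in WP. Between the other groups, 1 selected locus was free of overlap for BP against BC (9.13% of all kept loci), 3 for WP against BC (15.4%) and 0 for WP against BP (12.9%). Since the loci were picked for such differences, nothing is read from these counts. The selected loci held between 0.462% (VHA-E) and 2.01% (RAB15) of the counts of their own neighbourhood.

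The loci next to the selected ones are given without a test. Within 5 kb on either side there were 8 to 15 further loci. Around LEO1 these had a mean of 0.193 ± 0.285 counts per 1000000 (CPM) in WP, 0.992 ± 0.393 in BP, 0.593 ± 0.185 in BC and 0.608 ± 0.528 in WC (SD, n = 3), so that the group with the highest count at the selected locus had the lowest mean beside it. Around VHA-E, where WC was highest at the selected locus, the loci within 5 kb were at 0.310 ± 0.269 CPM in WP, 0.504 ± 0.107 in BP, 1.31 ± 0.41 in BC and 0.376 ± 0.327 in WC. For RAB15, whose selected locus was empty in WC, they were at 0.365 ± 0.127 CPM in WP, 0.405 ± 0.235 in BP, 0.181 ± 0.075 in BC and 0.326 ± 0.114 in WC. At BTB-MATH, where BC was highest at the selected locus, the values were 0.541 ± 0.581 in WP, 0.778 ± 0.318 in BP, 1.23 ± 0.39 in BC and 1.40 ± 1.63 in WC. At PPR, where WP had the highest mean, they were 1.89 ± 0.81 in WP, 0.810 ± 0.246 in BP, 1.94 ± 0.59 in BC and 1.12 ± 0.56 in WC. WC was highest at the selected loci of CHIL2, LOC123165569 and GLP8-5. Beside them, CHIL2 had 0.192 ± 0.333 CPM in WP, 0.346 ± 0.390 in BP, 0.820 ± 0.365 in BC and 0.249 ± 0.385 in WC. LOC123165569 had 0.560 ± 0.582 in WP, 0.856 ± 0.298 in BP, 0.726 ± 0.376 in BC and 0.473 ± 0.328 in WC. GLP8-5 had 0.765 ± 0.099 in WP, 0.372 ± 0.209 in BP, 0.967 ± 0.285 in BC and 0.664 ± 0.370 in WC. The nearest kept loci lay 3462 to 107203 bp away, and none of them had an adjusted p below 0.05 in a test over the 4 groups (edgeR quasi-likelihood test, lowest adjusted p = 0.682).

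The next comparison asked whether a whole neighbourhood differed between the groups. The counts of all flanking loci of a neighbourhood were summed and fitted together with 28430 windows of 500 kb that tile the 21 chromosomes. These sums are given in CPM of the normalised library size. Replicate libraries agreed to a coefficient of variation of 1.44% to 20.7%, with a median of 9.91%.

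The level differed between neighbourhoods, and is described first. CHIL2 was at a mean of 43.3 CPM over the 4 groups, higher than 79.3% of the windows, and PPR at 41.7 CPM was higher than 70.4%. VHA-E (36.0 CPM), LEO1 (35.6 CPM), LOC123165569 (34.9 CPM) and RAB15 (31.3 CPM) stood between the percentiles 27.1 and 41.3. BTB-MATH with 26.8 CPM was at percentile 17.9, and GLP8-5 with 20.6 CPM at percentile 10.3. The number of loci followed a similar order at the low end, since BTB-MATH held 324 and GLP8-5 held 372, against 391 to 467 in the others and a median of 425 per window.

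Around BTB-MATH the regional level was 29.4, 25.6 and 30.1 CPM in WP, 25.4, 19.4 and 19.9 CPM in BP, 27.4, 28.2 and 25.7 CPM in BC and 29.4, 31.3 and 30.0 CPM in WC. All BP libraries were below all libraries of the other groups. BP vs WC had a log2 fold change of -0.49 (SE 0.13), the largest of any neighbourhood in the 6 comparisons, with an adjusted p of 0.206 in edgeR's quasi-likelihood test over all windows, which missed the threshold of 0.05. It stood at the 1.19 percentile of the windows, and WP vs BP, at 0.40 (SE 0.13, adjusted p = 0.386), at the percentile 98.9. Without BP replicate 1, the highest of the 3, BP vs WC was -0.62 with an adjusted p of 0.0293, in a fit where 1.12% of all windows were called. Averaged over both PUT conditions, B against W light was -0.28 (SE 0.09, adjusted p = 0.119, edgeR), and without BP replicate 1 it was -0.34 with an adjusted p of 0.0311, beside 5.00% of windows called.

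The PPR surroundings were at 51.2, 45.9 and 46.1 CPM in WP, 40.6, 40.4 and 34.0 CPM in BP, 42.2, 36.8 and 34.4 CPM in BC and 38.7, 45.6 and 44.8 CPM in WC. Every WP library was above every library of the other groups. WP vs BC had a log2 fold change of 0.34 (SE 0.11, adjusted p = 0.0842), and WP vs BP one of 0.32 (SE 0.11, adjusted p = 0.392). Averaged over both PUT conditions, B against W light gave -0.25 (SE 0.08, adjusted p = 0.0838). None of these passed the threshold. Without WC replicate 1 the adjusted p was 0.0458 for WP vs BC and 0.0285 for B against W light, and without BP replicate 1 it was 0.0377 for B against W light. The fit without WC replicate 1 called 4.94% of all windows in WP vs BC and 4.496% for light.

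For GLP8-5 the regional level was 17.9, 23.2 and 22.6 CPM in WP, 17.3, 17.8 and 17.7 CPM in BP, 20.97, 25.5 and 21.4 CPM in BC and 22.6, 20.9 and 18.99 CPM in WC. The BP libraries were the 3 lowest of the 12. BP vs BC was -0.36 (SE 0.15, adjusted p = 0.346) and BP vs WC was -0.24 (SE 0.15, adjusted p = 0.562). VHA-E was at 37.8 ± 4.4 CPM in WP, 32.1 ± 0.6 in BP, 36.7 ± 3.7 in BC and 37.5 ± 6.5 in WC (SD, n = 3), with a log2 fold change of -0.23 (SE 0.12, adjusted p = 0.495) for BP vs WC.

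The libraries of a pair of groups were free of overlap in 1 neighbourhood for BC, 2 for BP and 1 for WP against WC, beside 19.2%, 12.2% and 9.94% of all windows. For BP against BC it was 3 (18.6%), for WP against BC 1 (27.2%) and for WP against BP 4 (13.3%). In the other 4 neighbourhoods, LEO1, CHIL2, LOC123165569 and RAB15, the groups overlapped in all 6 comparisons. LEO1 was at 35.9 ± 4.0 CPM in WP, 35.4 ± 3.9 in BP, 35.0 ± 1.0 in BC and 36.1 ± 7.5 in WC, and its largest log2 fold change was -0.05. CHIL2 was at 43.3 ± 5.0 CPM in WP, 44.6 ± 2.6 in BP, 41.7 ± 2.5 in BC and 43.5 ± 3.7 in WC. LOC123165569 was at 34.8 ± 2.4 CPM in WP, 36.4 ± 3.7 in BP, 35.9 ± 4.1 in BC and 32.4 ± 3.9 in WC, and BP vs WC was 0.17 (SE 0.12). RAB15 was at 32.7 ± 4.4 CPM in WP, 30.6 ± 5.0 in BP, 30.2 ± 1.8 in BC and 31.8 ± 3.0 in WC.

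**Figure D2:**
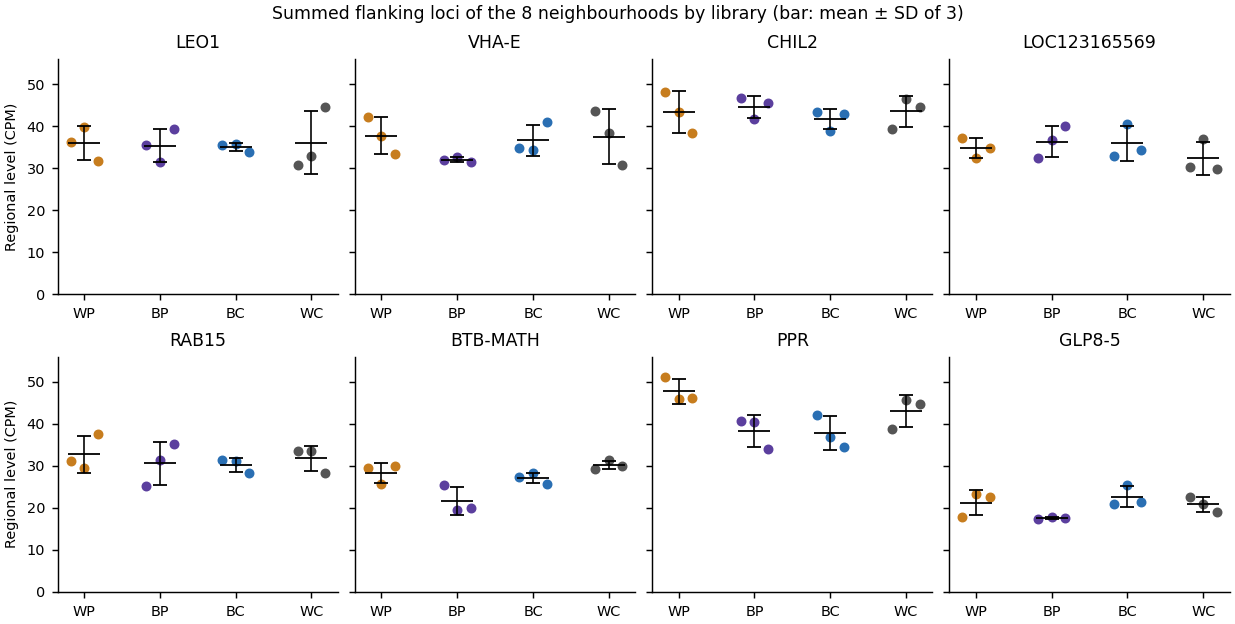
Regional level in CPM (y axis), the sum of all flanking loci, by group (x axis) for the 8 neighbourhoods. Points are the 3 libraries of a group, and bars are the mean ± SD of 3. BP is lowest around BTB-MATH and WP highest around PPR, while the 4 groups overlap around LEO1, CHIL2, LOC123165569 and RAB15.

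None of the 8 neighbourhoods passed an adjusted p of 0.05 in any of the 6 comparisons, in B against W light, in PUT against no PUT or in the interaction (the effect of PUT in W light less its effect in B light). At an unadjusted p below 0.05, edgeR gave 0 neighbourhoods for BC (13.4% of all windows), 1 for BP (10.9%) and 0 for WP (6.17%), each against WC. It gave 2 for BP against BC (10.6% of windows), 1 for WP against BC (18.1%), 2 for WP against BP (9.30%), 2 for light (17.5%), 1 for PUT (11.8%) and 0 for the interaction (5.14%). DESeq2 called 1 of the 72 tests, PPR in B against W light (adjusted p = 0.0493), where it called 2.75% of all windows. With 8 neighbourhoods, nothing is read from these counts.

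The same fit gave the share of windows called over the genome. The share against WC was 0.0106% for BC and 0.0% for BP and WP. It was 0.169% for BP against BC, 1.98% for WP against BC and 0.0% for WP against BP, and 0.475% for light, 0.225% for PUT and 0.0% for the interaction. These shares moved with single libraries. Without WC replicate 1 the share was 1.81% for BC against WC, 1.19% for BP against BC, 4.94% for WP against BC, 4.496% for light and 0.0985% for PUT. Without BP replicate 1 it was 1.12% for BP against WC, 0.774% for WP against BP and 5.00% for light. Over all libraries left out in turn, WP against BC ranged from 0.0528% to 4.94% and light from 0.0106% to 5.00%. The regional log2 fold changes of the 8 neighbourhoods were -0.19 to 0.15 in BC vs WC, with SEs of 0.11 to 0.15, and -0.09 to 0.15 in WP vs WC. They covered -0.49 to 0.17 for BP against WC, -0.36 to 0.10 for BP against BC, -0.09 to 0.34 for WP against BC and -0.06 to 0.40 for WP against BP. The median window lay between -0.00195 and 0.0145 in the 6 comparisons.

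**Figure D3:**
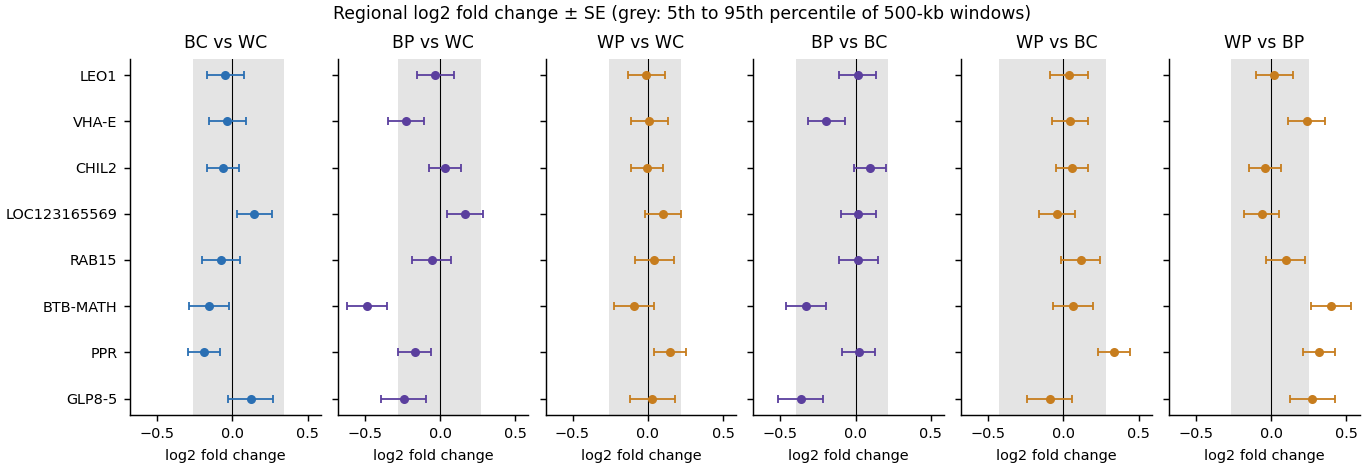
Regional log2 fold change (x axis) of each neighbourhood (y axis) in the 6 comparisons. Points are the fitted values with bars of 1 SE, and the grey band runs from the 5th to the 95th percentile of the 500-kb windows. BTB-MATH in BP vs WC (-0.49) and PPR in WP vs BC (0.34) lie outside the band, as do 3 points of WP vs BP: BTB-MATH (0.40), PPR (0.32) and GLP8-5 (0.27).

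Shape was examined in bins of 25 kb. The highest bin was the same in 3 of the 4 groups at LEO1, CHIL2, LOC123165569 and GLP8-5, in 2 groups at the other 4 genes, and in all 4 groups at none. In WP, BP and WC, LEO1 was highest at 112.5 kb before the position, with 4.31 CPM in WP, 3.31 in BP, 2.92 in BC and 4.82 in WC, while BC had 3.27 CPM at 212.5 kb before it. LOC123165569 had its highest bin 87.5 kb before the position in BP, BC and WC, at 3.56 CPM in WP, 4.56 in BP, 2.66 in BC and 3.67 in WC. In the BTB-MATH neighbourhood few loci and counts were found on one side. The bin centred 62.5 kb after the position had 2.79 CPM in WP, 1.98 in BP, 2.71 in BC and 3.96 in WC, whereas each of the 5 bins from 137.5 kb outward had at most 0.183 CPM in any group and held 1 to 6 loci. The regional sum and the number of loci of BTB-MATH include these bins. Whether reads can be mapped there was not tested, since input libraries were not used.

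**Figure D4:**
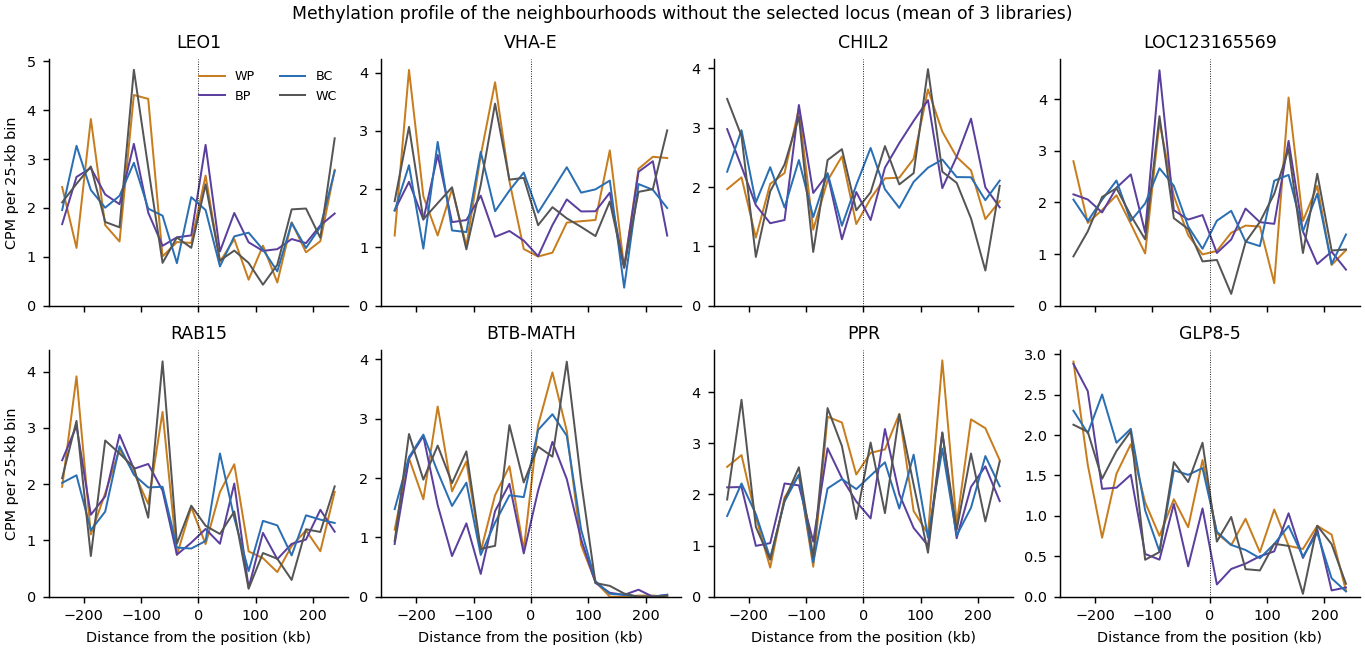
Level in CPM per 25-kb bin (y axis) against the distance from the given position in kb (x axis), as the mean of 3 libraries per group and without the selected locus. The highest bin is shared by at most 3 of the 4 groups, and the signal after the BTB-MATH position drops to at most 0.183 CPM in the outer bins.

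The level at the edge of each neighbourhood was also compared with that just beyond it, without a test. In the outermost 25 kb on each side, the mean over the groups was 4.75 CPM inside the radius and 3.25 CPM in the next 25 kb outside for LEO1, 3.67 and 4.51 for VHA-E, 4.56 and 3.65 for CHIL2, and 3.05 and 2.48 for LOC123165569. It was 3.70 CPM inside and 2.36 CPM outside for RAB15, 1.13 and 3.28 for BTB-MATH, 4.38 and 3.59 for PPR, and 2.66 and 1.40 for GLP8-5. VHA-E and BTB-MATH were lower inside than outside, and the other 6 were higher.

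While the summed level was similar, the reads were spread most widely in BC. A count was found at 24.4% ± 3.6 of the neighbourhood loci in WP, 31.9% ± 5.5 in BP, 35.7% ± 2.4 in BC and 20.3% ± 6.6 in WC (SD, n = 3). The lowest BC library was at 33.3% and the highest WC library at 25.3%, and WC replicate 1 was the lowest of all at 12.8%. These shares come from raw counts and were not adjusted for depth. Libraries totalled 17097608 to 18025436 counts in WP and 19641114 to 21355140 in BP. In BC they totalled 19973576 to 20489813 and in WC 15812048 to 18824815. How far depth set the shares was not tested. In each of the 8 neighbourhoods all BC libraries covered a larger share of flanking loci than all WC libraries, and the same held for BP in 4 and for WP in 0. This was a trait of the whole series. The share over all loci was 25.05% ± 3.80 in WP, 33.9% ± 5.2 in BP, 36.4% ± 2.9 in BC and 21.2% ± 6.8 in WC, and the BC libraries were all above the WC libraries in 94.2% of the windows, the BP libraries in 64.0% and the WP libraries in 1.09%. The count per covered locus went the other way, with 6.29 ± 0.76 in WP, 5.15 ± 0.78 in BP, 4.71 ± 0.34 in BC and 7.90 ± 2.15 in WC, where the libraries ran from 6.11 to 10.3 and WC replicate 1 was the highest. The part of this spread in the differences at single loci was not tested.

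Single flanking loci were then compared, at the thresholds of the study, a p below 0.01 with a log2 fold change beyond 1.5 either way. The edgeR quasi-likelihood test called 5 of the 134 kept flanking loci in BC vs WC (3.73%), against 2.54% of all kept loci. Of the other groups against WC, BP had 2 (1.49%, background 3.28%) and WP had 2 (1.49%, background 1.69%). There were 0 for BP against BC (background 0.333%), 1 for WP against BC (0.746%, background 1.38%) and 0 for WP against BP (background 1.54%). The interaction called 2 (background 1.01%). These shares are near the background, and a kept locus that is high in only 1 group had to differ, so that nothing is read from them about the neighbourhoods. No flanking locus had an adjusted p below 0.05 in a comparison (lowest adjusted p = 0.179, edgeR). Among all kept loci that threshold was passed against WC by 0.0139% for BC, 0.059% for BP and 0.000927% for WP, and by 0.00185% for BP against BC, 0.0109% for WP against BC and 0.0076% for WP against BP. At an unadjusted p below 0.05 there were 11 flanking loci for BC (8.21%, background 7.78%), 10 for BP (7.46%, background 8.97%) and 4 for WP (2.99%, background 6.59%), each against WC. There were 4 for BP against BC (2.99%, background 2.32%), 6 for WP against BC (4.48%, background 5.49%) and 5 for WP against BP (3.73%, background 5.80%). Where edgeR called none, DESeq2 called 1 locus for BP against BC and 3 for WP against BP at the study's thresholds, beside 1.00% and 3.84% of all kept loci in the same DESeq2 fit. Without WC replicate 1 the counts against WC were 2 for BC, 1 for BP and 1 for WP, and they were 3 for WP against BC and 1 for WP against BP. In that fit the background was 1.93% for BC, 2.19% for BP and 1.31% for WP against WC, 2.13% for WP against BC and 2.33% for WP against BP. The count in BC vs WC without WC replicate 2, WC replicate 3, BC replicate 1 or BC replicate 3 was 3. The background in these fits was 2.81%, 3.54%, 2.47% and 1.92%.

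The 10 calls came from 7 loci, none of which overlapped a gene. They are calls of the fit to all 12 libraries, and which of them held without WC replicate 1 is not given here. The locus with the strongest signal lay 139 kb before RAB15 (5A:611802833-611805087). It had 2, 0 and 3 counts in WP, 12, 18 and 8 in BP, 15, 15 and 10 in BC and 0 in each WC library. Every library under B light was above every library under W light. The log2 fold change was 7.04 (SE 2.07, adjusted p = 0.245) for BC vs WC and 6.73 (SE 2.05, adjusted p = 0.179) for BP vs WC in edgeR. Fitted against an empty group, these values depend on the prior count of the fit and are no lower bounds. For BC vs WC the adjusted p was 0.0170 to 0.575 over the alternatives run, and it passed 0.05 with the likelihood ratio test and with DESeq2.

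A locus 28 kb after BTB-MATH (7B:639076743-639079089) was called against WC in 3 comparisons. Its counts were 22, 4 and 20 in WP, 12, 3 and 5 in BP, 20, 0 and 6 in BC and 0 in each WC library. WP and BP libraries were all above WC, while 1 BC library was as empty as WC. The adjusted p was 0.548 for WP vs WC, 0.248 for BP vs WC and 0.282 for BC vs WC.

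Another 3 of the called loci lay in the LEO1 neighbourhood. At 117 kb before the position (5D:471807276-471808572), counts were 4, 3 and 0 in WP, 2, 2 and 4 in BP, 14, 3 and 11 in BC and 0 in each WC library, with a call in BC vs WC (adjusted p = 0.390, edgeR). At 18 kb before it (5D:471906081-471907071), they were 0, 11 and 16 in WP, 5, 4 and 3 in BP, 6, 0 and 13 in BC and 0 in WC, with a call in WP vs WC although 1 WP library was empty (adjusted p = 0.548, edgeR). The remaining one, 206 kb before the position (5D:471717314-471719850), was the only call that was lower in the first-named group, with 0 in each WP library, 5, 2 and 12 in BP, 13, 15 and 1 in BC and 0, 5 and 7 in WC (WP vs BC, adjusted p = 0.704, edgeR).

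The VHA-E neighbourhood had a called locus 164 kb before the position (1B:542117447-542119082) with 0, 5 and 1 counts in WP, 5, 6 and 9 in BP, 6, 11 and 11 in BC and 0 in each WC library (BC vs WC, adjusted p = 0.365, edgeR). Close to the edge of the LOC123165569 neighbourhood, 241 kb before the position (7D:85672301-85674206), the counts were 13, 3 and 8 in WP, 4, 3 and 3 in BP, 11, 12 and 0 in BC and 0 in each WC library (BC vs WC, adjusted p = 0.382, edgeR). Of the 7 loci, 6 were thus empty in all WC libraries. These were the ones called against WC, and the locus called in WP vs BC was empty in WP. At such low counts a call favours loci with an empty group, so nothing is read from this, nor from the shares that follow. Among all kept loci, 4.15% were at 0 in all WC libraries, 1.45% in all BC, 1.11% in all BP and 2.93% in all WP libraries.

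**Figure D5:**
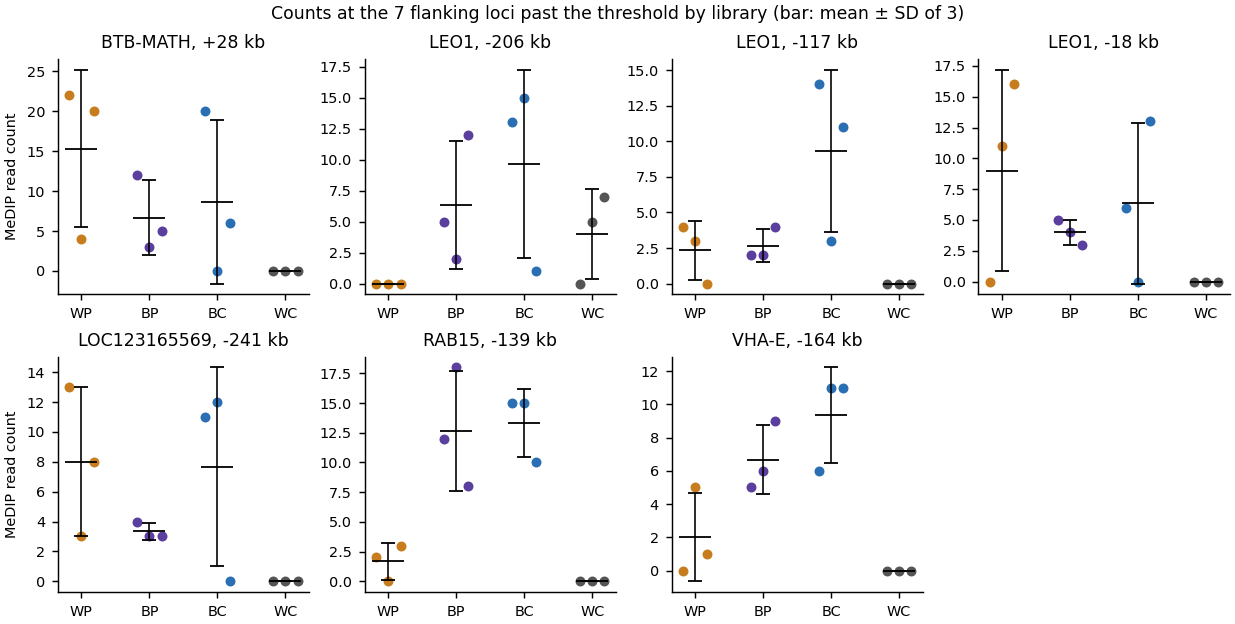
MeDIP read counts (y axis) by group (x axis) at the 7 flanking loci that passed the thresholds of the study, with the distance from the given position in each title. Points are the 3 libraries of a group, and bars are the mean ± SD of 3. WC is at 0 in 6 of the 7 loci, which are those called against WC.

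No flanking locus was called among the 24 kept ones of CHIL2, the 21 of PPR and the 5 of GLP8-5. In the CHIL2 neighbourhood the smallest p of the test over the 4 groups belonged to its most highly counted flanking locus (5A:324469393-324475091), which had 53, 40 and 23 counts in WP, 55, 25 and 13 in BP, 7, 0 and 15 in BC and 14, 42 and 23 in WC (WP vs BC, log2 fold change 2.03, SE 0.84, adjusted p = 0.712, edgeR). WP was above BC in every library. At PPR it was a locus 22 kb after the position (6D:361208935-361209923) with 1, 0 and 21 counts in WP, 0 in each BP library, 0, 0 and 5 in BC and 20, 12 and 3 in WC (BP vs WC, adjusted p = 0.314, edgeR). All BP libraries were empty there and all WC libraries were not. For VHA-E it was a locus 234 kb before the position (1B:542046623-542048574) with 0 counts in each WP library, 0, 11 and 13 in BP, 9, 8 and 3 in BC and 0, 1 and 0 in WC, and the adjusted p was 0.631 in WP vs BP (edgeR). For LOC123165569 it lay 39 kb after the position (7D:85953129-85953843) with 1, 3 and 1 counts in WP, 0, 3 and 13 in BP, 0, 13 and 11 in BC and 0 in each WC library (BC vs WC, adjusted p = 0.394, edgeR). The groups compared overlapped at both of these loci.

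Long, well covered loci gave the most precise comparison of single places. The highest mean counts among flanking loci were 29.8 in the VHA-E neighbourhood (1B:542053846-542062058), 29.7 in that of LOC123165569 (7D:86059108-86065431) and 25.8 near BTB-MATH (7B:638832293-638835438), as at the CHIL2 locus above. The VHA-E one had 51, 58 and 36 counts in WP, 32, 40 and 3 in BP, 7, 20 and 29 in BC and 32, 16 and 34 in WC. WP lay above WC and BC in each library, but its test over the 4 groups gave an adjusted p of 1.00 (edgeR). Near BTB-MATH the counts were 31, 27 and 30 in WP, 19, 37 and 38 in BP, 30, 17 and 13 in BC and 18, 24 and 26 in WC. WP was above WC in each library, without a call. At PPR the best covered flanking locus lay 7 kb after the position (6D:361190854-361197874), next to the gene, and had 26, 24 and 40 counts in WP, 14, 19 and 4 in BP, 27, 37 and 23 in BC and 11, 26 and 17 in WC. WP and BC exceeded BP in each library there. Its test over the 4 groups again gave an adjusted p of 1.00 (edgeR). The best covered loci of LEO1, RAB15 and GLP8-5 had mean counts of 17.25, 11.1 and 17.1, without a call.

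The annotation places 69 genes in or across the 8 neighbourhoods, from 2 around CHIL2 and around PPR to 22 around GLP8-5. Of these, 59 had at least 1 locus and 9 had a kept locus. Loci overlapping a gene made up 6.23% of the neighbourhood loci, compared with 5.38% of all loci. Apart from LEO1, RAB15 and PPR and the neighbour of CHIL2 already described, 5 genes had a kept locus.

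The protein-coding gene LOC123106136 in the GLP8-5 neighbourhood (5A:701772158-701779156) was covered by a kept locus with 2, 0 and 0 counts in WP, 0, 1 and 0 in BP, 7, 14 and 15 in BC and 0, 7 and 7 in WC. BC was above BP and WP in every library. Its smallest p was in BP vs BC, with a log2 fold change of -4.98 (SE 2.25), and the adjusted p was 1.00 in edgeR. LOC123108504, a protein-coding gene nearby (5A:701809050-701810328), had 5, 13 and 50 counts in WP, 0, 2 and 19 in BP, 6, 14 and 0 in BC and 16, 18 and 4 in WC, so that the groups overlapped. The pseudogene LOC123170864 and the long non-coding RNA gene LOC123167164 near LOC123165569, and the long non-coding RNA gene LOC123105317 near RAB15, also had 1 kept locus each, and none was called.

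Around GLP8-5, 13 of the 22 annotated genes had a locus and 2 had a kept one. Around PPR 1 of the 2 genes had a locus, and in the other 6 neighbourhoods every gene had at least 1. The GLP8-5 neighbourhood also had the smallest covered share, at 40.8% of its length, against 46.0% for BTB-MATH and 56.1% to 73.6% for the others.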

How the data were processed

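The authors immunoprecipitated 5-methylcytosine, quality-trimmed the reads (Trim Galore, cutadapt), mapped them on IWGSC CS RefSeq v2.1 using BWA, and obtained covered loci and their reads from bedtools. The deposited values are raw counts. Versions, duplicate removal and the handling of reads that fit more than 1 subgenome are not given in the sources used here, and input libraries were not used here, so a count also depends on mappability. PCR copies may count more than once, so the floor of 3 counts over a group covers counting error only.

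The filter on low counts is given above. Tests used edgeR 4.0.16 (quasi-likelihood) in R 4.3.3 with 1 coefficient per group on all 12 libraries, TMM factors and Benjamini-Hochberg adjustment over all 539307 kept loci or, for regions, 28438 windows and neighbourhoods. The dispersion was 0.951 for loci and 0.0102 for windows. For loci edgeR estimated infinite prior degrees of freedom, and p therefore ignores how far the replicates of that one locus scatter. SEs were derived from the fold change and its F statistic. The scripts were tested on simulated data. CPM are per 1000000 of the normalised window totals. Fold values and bounds at selected loci use counts scaled to equal normalised size. This size was 3915734 to 4026231 in BC and 5427788 to 6099202 in WC, while BC libraries held more counts in all. Over all kept loci the median log2 fold change of BC vs WC was 0.205 with it. With library size over every locus that median was -0.460. The fold bounds thus hold for this scaling only.

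The libraries of a group are repeats in the labels. P-values of edgeR for windows and neighbourhoods measure the spread between these libraries, partly pooled over all windows. For single loci they rest on a spread estimated over all kept loci and not on that of the locus itself. The given positions are rounded to 1 kb, so the selected locus was taken as the nearest kept one. The named loci were, per neighbourhood, the smallest p, the highest mean count, those called and those in another gene. Members and lists were chosen with earlier results of these data known. Lists of related genes by product name, planned for description, were not analysed here because the annotation used gives no product names. Sensitivity to DESeq2 1.42.0, scaling, filters, radius, block and left-out libraries is given at the end.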

Additional observations from a re-analysis of the deposited data

How the results depend on the processing

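Regional fold changes kept their direction under every alternative run for BTB-MATH and PPR (BTB-MATH in BP vs WC from -0.62 to -0.42, PPR in WP vs BC from 0.27 to 0.42, PPR in B against W light from -0.30 to -0.21), but the count of neighbourhoods past an adjusted p of 0.05, 0 in each of the 9 contrasts, changed in 3 of them. In WP vs BC it was 1 with the likelihood ratio test (5.48% of all windows) and 1 with only the 6 libraries of the comparison (9.21%). For light it was 1 with the likelihood ratio test (3.58% of all windows) and 1 with DESeq2 (2.75%). When each library was left out in turn it ranged from 0 to 1 in BP vs WC, from 0 to 1 in WP vs BC and from 0 to 2 for light. The share of all windows called in those fits ran from 0% to 1.12%, from 0.0528% to 4.94% and from 0.0106% to 5.00%. The neighbourhoods concerned were BTB-MATH without BP replicate 1 (BP vs WC and light) and PPR without WC replicate 1 (WP vs BC and light) or BP replicate 1 (light), and the cause was not tested. Scaling by library size or RLE factors, the radius of 100 kb, including the gene loci, leaving out the highest locus, the replicate block and no filter left the count at 0 in all 9 contrasts, as did leaving out loci within 3 kb of the gene, an alternative chosen after seeing the data.

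Counts of called flanking loci were small and moved with most choices. Percentages in brackets are the share of all loci called in the same fit. Against WC, a filter above 5 gave 12 for BC (1.6%), 7 for BP (1.88%) and 7 for WP (1.01%). No filter gave 11 (0.29%), 9 (0.365%) and 7 (0.203%), with all 3258 flanking loci tested. A filter above 20 gave 0 for each (1.91%, 3.31% and 0.855%), as did an adjusted p below 0.05 as the threshold. How many flanking loci passed the filters above 5 and above 20 is not given here. DESeq2 called 8 for BC (4.65%) and 6 for BP (6.2%), and the likelihood ratio test 7 for BP (5.83%). With only the 6 libraries of a comparison there were 3 for BC (1.94%), 1 for BP (2.21%) and 1 for WP (0.477%). Library size alone gave 3 for BC (2.15%) and 1 for WP (1.7%), and RLE size factors 4 for BP (4.16%) and 1 for WP (1.81%). Library size over every locus gave 2 for BC (1.77%) and 1 for WP (1.56%). For BP against BC, the filter above 5 (0.187%), no filter (0.0382%), DESeq2 (1%) and the fit to 6 libraries (0.523%) gave 1. The likelihood ratio test gave 2 (1.14%). WP against BC had 2 with the filter above 5 (0.738%), 0 with the filter above 20 (1.23%) and 2 with no filter (0.129%). It had 6 with DESeq2 (3.08%), 3 with the likelihood ratio test (3.04%), 3 with 6 libraries (2.52%) and 0 at an adjusted p below 0.05. WP against BP had 1 with the filter above 5 (0.784%), 3 with no filter (0.148%) and 3 with DESeq2 (3.84%). It had 3 with the likelihood ratio test (3.27%), 2 with RLE size factors (2.42%) and 1 with library size over every locus (0.978%). Leaving out 1 library at a time gave 2 to 6 for BC (1.57% to 3.54%), 1 to 3 for BP (1.56% to 4.18%) and 0 to 2 for WP (1.22% to 3.07%) against WC. It gave 0 to 1 for BP against BC (0.262% to 0.563%), 0 to 3 for WP against BC (0.73% to 2.13%) and 0 to 1 for WP against BP (0.565% to 2.33%). Each of the 12 libraries, left out alone, moved at least 1 of these counts by over 1.5 times. The largest drops were to 2 in BC vs WC without WC replicate 1 (1.93%) and to 0 in WP vs WC without WP replicate 3 (1.22%). The cause of these shifts was not tested.

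Same-numbered libraries of different groups had correlations of -0.106 to 0.181 in their deviations from the group means, against -0.207 to 0.234 for other pairs, so the numbers were not taken as pairs. A replicate block gave 2 called flanking loci in BC vs WC and 1 in WP vs WC, and changed no other count by more than 1.5 times. The same fit called 1.67% and 0.91% of all kept loci in these 2 comparisons. The median mean count at kept neighbourhood loci was 7.83, and how large a change could be detected at such loci is not given here.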
